A study of Mus musculus with 6 samples.

Results

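Day 3 skin wounds of mice heterozygous for Foxo1 (FoxO1 +/-) were compared with wounds of wild-type mice for 41 genes of the cell cycle and of DNA replication. The genes were chosen by name: 17 act in DNA replication or the entry into it, 2 are D-type cyclins and 22 act in G2 and mitosis. They were found on the array through the accession each probe carries, and 39 of the 41 had a probe well above background, out of 16411 genes tested in all. Both groups were male C57/BL6 mice that received 4 full-thickness wounds of 4 mm in the back skin, and the wounds were harvested with a 6 mm punch, so that the tissue held wound and surrounding skin. The FoxO1 +/- group had 3 arrays and the WT group, whose genotype is given as wild type, had 3 arrays. The labels give the allele as FoxO1 +/- with no promoter or Cre, and do not say how many of a mouse's wounds entered a sample.

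A cell that enters the cycle first raises D-type cyclins, whose kinases inactivate the retinoblastoma protein and free E2F factors to switch on the genes of DNA replication. The MCM helicase is then loaded on origins by Cdc6 and Cdt1, and the genes of G2 and mitosis follow later, through the MuvB complex, B-Myb and FoxM1 acting at CHR and CCAAT elements in their promoters. FoxO factors are known in other settings to raise inhibitors of cyclin-dependent kinases and to hold D-type cyclins down, and in a day 3 skin wound the dividing cells include keratinocytes behind the migrating edge, fibroblasts and endothelial cells.

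Promoters of members were searched for the letters of these elements, on both strands, in a window of 300 bases that runs from 250 bases before the start of the gene to 50 after it (RefSeq, GRCm38.p6). A window was given for 30 of the 41 members, 13 replication members (with 14 windows) and 17 G2 and mitosis members. The 4 promoters below are those of the replication and of the mitosis members with a window whose difference between genotypes was largest against its standard error. The Mcm5 window is chr8:75109259-75109558 on the plus strand, the Mcm2 window chr6:88898731-88899030 on the minus strand, the Kif23 window chr9:61946750-61947049 on the minus strand and the Bub1b window chr2:118597961-118598260 on the plus strand. Each is written 5′ to 3′ along its gene, and capitals mark the motif letters found.
Mcm5 promoter: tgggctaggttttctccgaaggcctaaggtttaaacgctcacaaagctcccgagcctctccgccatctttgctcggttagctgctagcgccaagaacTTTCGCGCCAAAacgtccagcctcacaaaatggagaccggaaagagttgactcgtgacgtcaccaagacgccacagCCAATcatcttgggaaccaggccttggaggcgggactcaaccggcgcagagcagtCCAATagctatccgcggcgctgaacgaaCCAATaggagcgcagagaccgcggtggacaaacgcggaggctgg
Mcm2 promoter: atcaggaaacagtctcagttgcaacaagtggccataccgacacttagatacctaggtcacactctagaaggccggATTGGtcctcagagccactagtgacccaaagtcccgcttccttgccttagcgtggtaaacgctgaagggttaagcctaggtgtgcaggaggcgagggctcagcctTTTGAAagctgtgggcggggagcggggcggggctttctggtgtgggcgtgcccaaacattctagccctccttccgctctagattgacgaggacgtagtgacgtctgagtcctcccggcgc
Kif23 promoter: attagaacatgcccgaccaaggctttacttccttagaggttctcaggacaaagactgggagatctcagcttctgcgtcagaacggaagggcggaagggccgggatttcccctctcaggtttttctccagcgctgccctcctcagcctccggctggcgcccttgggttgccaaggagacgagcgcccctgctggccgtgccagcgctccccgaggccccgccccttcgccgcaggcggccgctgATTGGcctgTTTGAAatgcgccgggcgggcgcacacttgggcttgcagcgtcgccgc
Bub1b promoter: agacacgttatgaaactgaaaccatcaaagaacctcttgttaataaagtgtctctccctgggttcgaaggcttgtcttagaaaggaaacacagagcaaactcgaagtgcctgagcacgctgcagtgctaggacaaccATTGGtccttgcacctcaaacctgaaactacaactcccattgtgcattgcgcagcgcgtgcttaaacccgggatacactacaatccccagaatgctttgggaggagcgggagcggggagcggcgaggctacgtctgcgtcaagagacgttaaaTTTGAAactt

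The capitals in the Mcm5 promoter begin with an E2F match on each strand, TTTCGCGC and, overlapping it, GCGCCAAA, which begin at positions -153 and -149, counted from the gene's start as 0. The other capitals there are CCAAT at 3 places. In the Mcm2 promoter the capitals are ATTGG, which is CCAAT on the opposite strand, and the CHR letters TTTGAA, and no E2F letters were found in that window, the 1 replication window of 14 with the CHR letters. Kif23 holds ATTGG at position -7, close to TTTGAA at position 2. Bub1b holds the same pair of elements, with ATTGG at position -113 and TTTGAA at position 40.

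Over all windows of the class, at least 1 of the 4 E2F spellings searched (TTTCCCGC or TTTCGCGC or TTTGGCGC or TTTGCCGC) was present in 42.9% of the 14 replication windows, of Cdc6, Cdt1, Mcm3, Mcm5, Mcm6 and Mcm7 (Pcna, Rrm1 and Rrm2 had CCAAT and no E2F letters). Those spellings were in 5.88% of the 17 mitosis windows, where Cdk1 alone had one, and in 2.26% of the 32851 windows of all genes. The CHR letters TTTGAA were in 7.14% of replication windows, 76.5% of mitosis windows and 17.9% of all windows. CCAAT was in 64.3% of replication windows, 94.1% of mitosis windows and 37.4% of all windows. The forkhead core TGTTTAC, the letters that FoxO and other forkhead factors bind, was in the Mcm7 window, in 0 of the 17 mitosis windows and in 3.65% of all windows. A match describes these letters in this window and does not show binding.

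**Figure D1:**
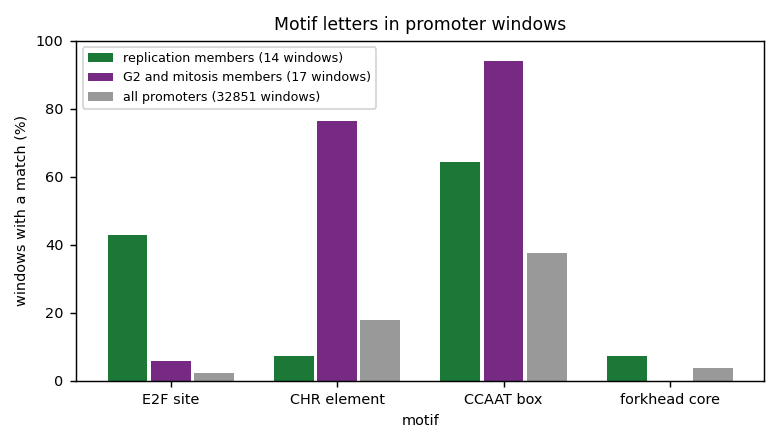
Share of promoter windows (%) with a match to each motif on either strand, for 14 windows of replication members, 17 of G2 and mitosis members and 32851 of all genes. The E2F letters were most common in the replication windows (42.9%) and the CHR letters in the mitosis windows (76.5%).

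Foxo1 itself was measured by 2 probes, and on both every FoxO1 +/- array lay below every WT array. The brighter probe read 1.54, 1.69 and 1.49 on FoxO1 +/- arrays, against 2.04, 1.81 and 2.32 on WT arrays, with levels throughout given as log2 of the signal relative to the array's 75th percentile and arrays in the order of replicates 1, 2 and 3. The difference was -0.48 (limma SE 0.15, adjusted p = 0.547 over all probes). The other probe differed by -0.89 (SE 0.14, adjusted p = 0.190), which is 0.538 of the WT level. The shares of spots well above background were 71.3%, 70.1% and 64.3% on FoxO1 +/- arrays and 71.8%, 71.9% and 71.3% on WT arrays, so that FoxO1 +/- replicate 3 was the dimmest array. Keratinocyte markers were present as the label skin requires: 11 of 11 were measured, with mean levels of 5.83, 5.47 and 5.96 on FoxO1 +/- arrays and 6.13, 5.84 and 5.85 on WT arrays. Across all genes, 1 of 16411 passed an adjusted p of 0.05 (0.00609%), and it was the vomeronasal receptor gene Vmn1r227 (adjusted p = 0.0315), named here after its value was seen.

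No member differed between the genotypes beyond the spread between arrays on its brightest probe. Of the 39 measured members, 0 passed an adjusted p of 0.05 in limma, where adjusted p ran from 0.820 to 0.999. At an unadjusted p of 0.05, 0 members were lower in FoxO1 +/- and 0 were higher, against 2.83% and 3.42% of all genes. In 0 members did all FoxO1 +/- arrays lie below all WT arrays and in 0 above, against 4.56% and 6.9% of all genes. The values leaned to the lower side: 33 of 39 members had a negative log2 difference, FoxO1 +/- minus WT, against 46.3% of all genes, with a median of -0.08 for the members and 0.01 for all genes. That count depended on single arrays: 19 of 39 were lower with FoxO1 +/- replicate 1 left out, 20 with WT replicate 2 left out and 25 with WT replicate 1 left out. With FoxO1 +/- replicate 2, FoxO1 +/- replicate 3 or WT replicate 3 left out, the counts were 34, 37 and 36. Members that move together are not independent counts, and in whole tissue fewer cycling cells and less RNA per cell cannot be told apart. Single differences ran from -0.24 to 0.11, and the widest 95% intervals reached -0.65 and 0.49, or 0.638 and 1.40 as folds.

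**Figure D2:**
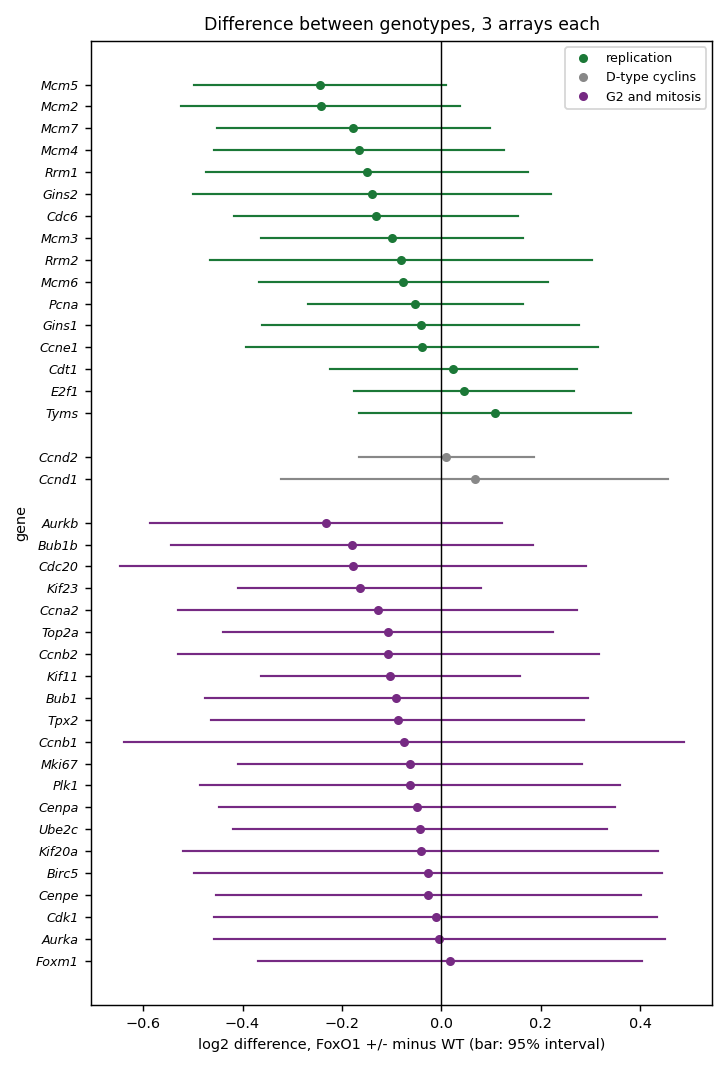
Log2 difference, FoxO1 +/- minus WT, of each of the 39 measured genes (point) with limma's 95% interval (bar), 3 arrays per genotype, ordered by size within each class. Every interval includes 0, and Mcm5 and Mcm2 lie farthest to the left at -0.24.

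Among the replication members the 4 most negative differences were those of Mcm5, Mcm2, Mcm7 and Mcm4, subunits of the MCM helicase, the ring of 6 that unwinds DNA at the fork. Mcm5 read 1.98, 1.97 and 2.11 on FoxO1 +/- arrays, against 2.38, 2.34 and 2.08 on WT arrays. The FoxO1 +/- arrays lay close together, and WT replicates 1 and 2 stood above them while WT replicate 3 fell within their range. The difference was -0.24 (SE 0.10, adjusted p = 0.820, two-sided exact permutation p = 0.2, where 0.1 is the smallest that 3 arrays against 3 allow). Mcm2, a subunit of the same ring, gave 0.58, 0.63 and 0.73 on FoxO1 +/- arrays, against 1.07, 0.92 and 0.68 on WT arrays, a difference of -0.24 (SE 0.12, adjusted p = 0.826). Here too WT replicate 3 alone overlapped the FoxO1 +/- arrays. The other subunits had differences of -0.18 for Mcm7, -0.17 for Mcm4, -0.10 for Mcm3 and -0.08 for Mcm6, so that 6 of 6 had negative values and 0 of 6 passed the test.

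The factors that load the helicase and the proteins that form the active fork had values on both sides of 0. Cdc6, which brings the ring to origins, read -1.67, -1.68 and -1.64 on FoxO1 +/- arrays, against -1.60, -1.29 and -1.70 on WT arrays, and WT replicate 2 alone stood out as high (difference -0.13, SE 0.12, adjusted p = 0.934). Cdt1, its partner in loading, read 2.40, 2.29 and 2.53 on FoxO1 +/- arrays, against 2.51, 2.39 and 2.25 on WT arrays, and the genotypes overlapped (difference 0.02, SE 0.10). Pcna, the sliding clamp of the polymerases, read 4.49, 4.59 and 4.68 on FoxO1 +/- arrays, against 4.75, 4.62 and 4.55 on WT arrays (difference -0.05, SE 0.09, 95% interval -0.27 to 0.16). WT replicates 2 and 3 lay among the FoxO1 +/- arrays, whereas for Mcm5 only WT replicate 3 did. The GINS subunits, which join the helicase to the polymerase, differed by -0.14 for Gins2 and -0.04 for Gins1.

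The enzymes that supply deoxynucleotides had values in both directions. Rrm2, the regulated subunit of ribonucleotide reductase, read 2.65, 2.70 and 2.94 on FoxO1 +/- arrays, against 3.10, 2.87 and 2.57 on WT arrays (difference -0.08, SE 0.16). The WT arrays alone spanned the whole range of values of this gene. Rrm1, the large subunit of that enzyme, differed by -0.15 (SE 0.13), whereas Tyms, which makes thymidylate, differed by 0.11 (SE 0.11, adjusted p = 0.952). Tyms was the member with the most positive difference, with -1.65, -1.75 and -1.67 on FoxO1 +/- arrays and -1.84, -1.58 and -1.96 on WT arrays.

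Of the regulators of the entry into S phase, E2f1, the activator of the replication genes, read 0.96, 0.95 and 1.101 on FoxO1 +/- arrays, against 0.95, 1.08 and 0.85 on WT arrays (difference 0.05, SE 0.09, 95% interval -0.18 to 0.27). Ccne1, a cyclin of the G1 to S transition, read 1.17, 1.22 and 1.31 on FoxO1 +/- arrays, against 1.49, 1.37 and 0.97 on WT arrays (difference -0.04, SE 0.15). The WT values of Ccne1 lay on either side of its FoxO1 +/- values, and those of E2f1 overlapped them. The related cyclin Ccne2 was well above background on 0 of 3 FoxO1 +/- arrays and 1 of 3 WT arrays, and no difference is given for it.

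The D-type cyclins, which FoxO factors are known to repress in other cells, had values on the higher side of 0 that did not pass the test. Ccnd1 read 2.93, 3.01 and 2.71 on FoxO1 +/- arrays, against 3.09, 2.53 and 2.83 on WT arrays (difference 0.07, SE 0.16, 95% interval -0.32 to 0.46). Ccnd2 read 2.10, 2.23 and 2.26 on FoxO1 +/- arrays, against 2.19, 2.19 and 2.19 on WT arrays (difference 0.0098, SE 0.07). The WT arrays of Ccnd2 were nearly identical, and the interval of -0.17 to 0.19 was narrow. In 16 alternatives of processing or arrays used, the sign changed in 7 for Ccnd2 and in 1 for Ccnd1. Ccnd1 did not follow the other members from array to array, being lowest of all 6 on WT replicate 2.

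The genes of G2 and mitosis had 20 of 21 differences below 0, with a median of -0.07, and a wider spread between arrays of 1 genotype than the replication genes. Cdk1, the kinase that drives entry into mitosis, read 0.93, 1.13 and 1.51 on FoxO1 +/- arrays, against 1.24, 1.40 and 0.97 on WT arrays (difference -0.01, SE 0.18). Ccnb1, its mitotic cyclin, read 1.22, 1.55 and 2.01 on FoxO1 +/- arrays, against 1.68, 1.93 and 1.40 on WT arrays (difference -0.07, SE 0.23). Within FoxO1 +/- the arrays of Ccnb1 differed among themselves by far more than the genotypes did, and its range over all 6 arrays, 0.79 or 1.73-fold, was the widest of any member. Ccna2, the cyclin of S phase and G2, read 1.86, 2.16 and 2.30 on FoxO1 +/- arrays, against 2.29, 2.44 and 1.97 on WT arrays (difference -0.13, SE 0.16). In all 3 genes FoxO1 +/- replicate 1 was the lowest of its genotype and WT replicate 3 the lowest of its own.

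Mki67, whose protein Ki-67 is the usual stain for cycling cells, read 3.36, 3.57 and 3.76 on FoxO1 +/- arrays, against 3.69, 3.77 and 3.42 on WT arrays (difference -0.06, SE 0.14, 95% interval -0.41 to 0.28). Top2a, the topoisomerase that untangles sister chromatids, read 0.63, 0.80 and 1.00 on FoxO1 +/- arrays, against 0.93, 1.09 and 0.73 on WT arrays (difference -0.11, SE 0.14). The 2 proliferation markers thus overlapped between genotypes. Foxm1, the transcription factor of the mitotic programme, read -0.31, -0.03 and 0.06 on FoxO1 +/- arrays, against -0.05, 0.10 and -0.38 on WT arrays, and was the mitosis member with a positive difference (0.02, SE 0.16).

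Of the mitotic kinases, Aurkb, the catalytic subunit of the chromosomal passenger complex, had the most negative difference of its class. It read -4.51, -4.23 and -4.32 on FoxO1 +/- arrays, against -3.94, -4.03 and -4.39 on WT arrays (difference -0.23, SE 0.15, adjusted p = 0.889). WT replicate 3 lay among the FoxO1 +/- arrays, and with normexp background correction the difference was 0.0073. Plk1, a kinase of spindle assembly and mitotic entry, read 2.52, 2.79 and 2.97 on FoxO1 +/- arrays, against 2.84, 3.08 and 2.55 on WT arrays (difference -0.06, SE 0.17). Aurka, the centrosomal Aurora kinase, differed by -0.0038 and its activator Tpx2 by -0.09, and Birc5, the survivin subunit of the passenger complex, by -0.03. Values of these partners did not separate the genotypes.

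The motors, the checkpoint and the anaphase machinery also overlapped between the genotypes. Kif23, a kinesin of the central spindle in cytokinesis, read -0.42, -0.29 and -0.19 on FoxO1 +/- arrays, against -0.13, -0.02 and -0.26 on WT arrays (difference -0.16, SE 0.10, adjusted p = 0.883). This was the smallest adjusted p of the mitosis members. Cdc20, the activator of the anaphase-promoting complex, read 2.70, 2.98 and 3.21 on FoxO1 +/- arrays, against 3.21, 3.39 and 2.81 on WT arrays (difference -0.18, SE 0.19). Bub1b, a spindle checkpoint protein that restrains Cdc20, read -0.68, -0.39 and -0.25 on FoxO1 +/- arrays, against -0.16, -0.15 and -0.48 on WT arrays (difference -0.18, SE 0.15). Neither the checkpoint gene nor its target passed the test. The rest of the class lay closer to 0, with -0.11 for the cyclin Ccnb2, -0.10 for the spindle motor Kif11, -0.09 for the checkpoint kinase Bub1, -0.05 for the centromeric histone Cenpa, -0.04 for the ubiquitin-conjugating enzyme Ube2c, -0.04 for the kinesin Kif20a and -0.03 for the kinetochore motor Cenpe. Cenpf, another kinetochore protein, was well above background on 1 of 3 FoxO1 +/- arrays and 0 of 3 WT arrays, and no difference is given for it.

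The members had 53 probes, 51 of which were kept, and all 51 were well above background on all 6 arrays. Of the 9 members with several kept probes, 3 had a further probe with the opposite sign, and 0 of 12 further probes lay over 1.5-fold from the brightest. For Cdk1 the further probe A_55_P2016647 read -2.64, -2.76 and -2.32 on FoxO1 +/- arrays, against -2.90, -2.80 and -3.09 on WT arrays. All FoxO1 +/- arrays were above all WT arrays on it (difference 0.36, SE 0.14, adjusted p = 0.733 over all probes), while the third Cdk1 probe differed by -0.08. On their brightest probes, 6.9% of all genes were apart in that direction. The second Tpx2 probe differed by 0.13 and the second Foxm1 probe by -0.0045, both with overlapping genotypes.

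Within each genotype the mitosis genes moved almost as a block from array to array, and the other members followed them only in part. FoxO1 +/- replicate 1 was the lowest FoxO1 +/- array for 21 of 21 mitosis members, and FoxO1 +/- replicate 3 was the highest for 20 of 21, against 39.5% and 40.0% of all genes. In WT, replicate 3 was the lowest for 21 of 21 and replicate 2 the highest for 19 of 21. This 4-part order, written down after the values were seen and so given without a test, held in 19 of 21 mitosis members (90.5%), 2 of 16 replication members (12.5%) and 1148 of all 16411 genes. Replication members had WT replicate 3 lowest in 16 of 16 but WT replicate 1 as the highest WT array in 11 of 16, which was so in 36.1% of all genes. The median range over all 6 arrays was 0.54 (1.45-fold) for the mitosis members and 0.41 (1.33-fold) for the replication members. Spread within a genotype, as limma's residual SD, had a median of 0.23 in the mitosis members, 0.15 in the replication members and 0.14 in all genes.

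**Figure D3:**
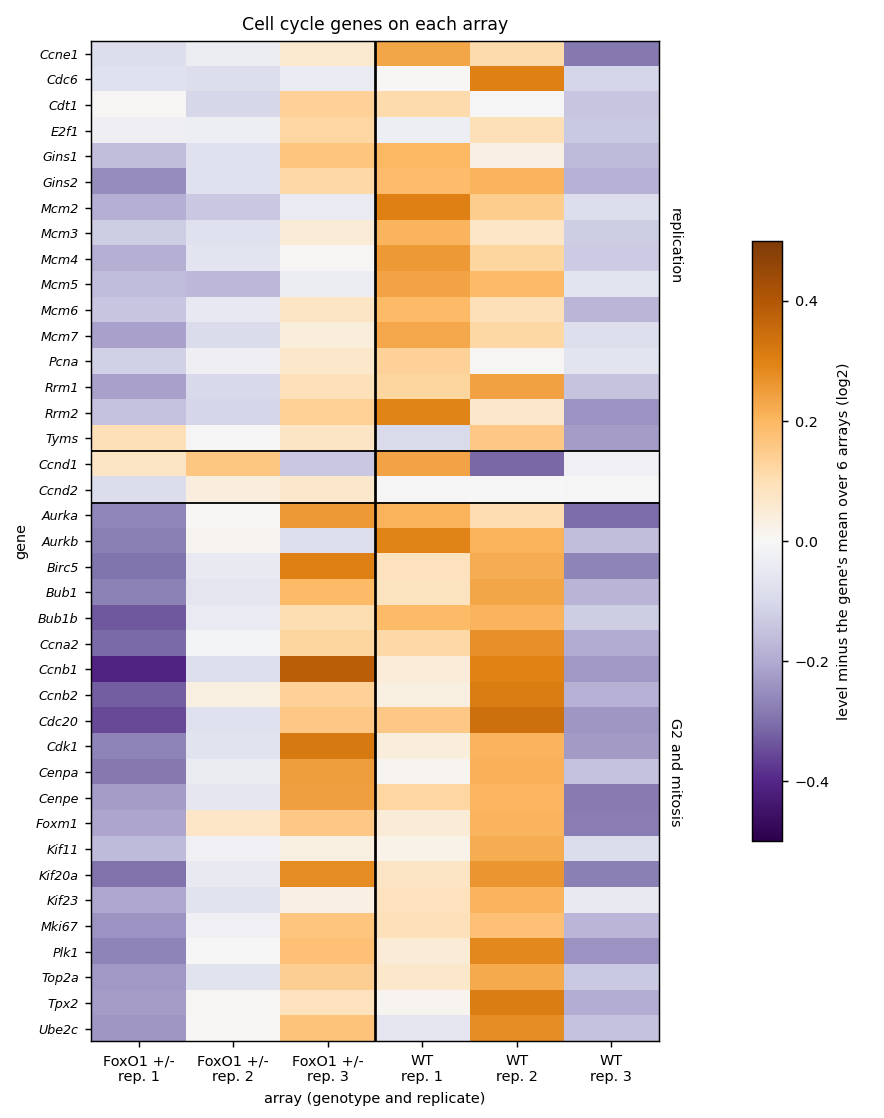
Level of each measured gene on each array minus the gene's own mean over the 6 arrays (log2, colour), with the 3 FoxO1 +/- arrays left of the black vertical line and the 3 WT arrays right of it, and classes parted by horizontal lines. In the G2 and mitosis block the columns of FoxO1 +/- replicate 1 and WT replicate 3 are low from top to bottom, and those of FoxO1 +/- replicate 3 and WT replicate 2 are high with the exception of Aurkb.

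Set against each other, the 2 phases lay at distances that overlapped between the genotypes. The mean level of the 16 replication members was 1.71, 1.76 and 1.90 on FoxO1 +/- arrays and 1.99, 1.96 and 1.69 on WT arrays. That of the 21 mitosis members was 1.00, 1.24 and 1.44 on FoxO1 +/- arrays and 1.35, 1.51 and 1.07 on WT arrays. Replication minus mitosis was therefore 0.71, 0.52 and 0.46 on FoxO1 +/- arrays and 0.64, 0.45 and 0.61 on WT arrays, or 0.56 ± 0.13 and 0.57 ± 0.10 (SD, n = 3 each), a difference of -0.0075. The size of that distance itself depends on how bright the probes are and is not a ratio of transcripts. On the arrays where mitosis members were high, FoxO1 +/- replicate 3 and WT replicate 2, it was smallest. The mitosis level is itself subtracted in this distance, so that this is not a separate observation about the 2 phases.

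Levels of marker genes of other cells moved over the same arrays. All 6 skeletal muscle markers were measured on all arrays, none at 0, and their summed linear level was 360, 326 and 147 times the array's 75th percentile on FoxO1 +/- arrays and 211, 147 and 398 times on WT arrays. The muscle markers were thus lowest on FoxO1 +/- replicate 3 and WT replicate 2, where the mitosis members were highest, and highest on FoxO1 +/- replicate 1 and WT replicate 3, where those were lowest. Muscle was not the only list to follow these arrays. The summed neutrophil level was 639, 594 and 784 on FoxO1 +/- arrays and 548, 776 and 591 on WT arrays. It was highest where the mitosis members were highest, but lowest on FoxO1 +/- replicate 2 and WT replicate 1. Of the 16 markers of growing hair follicles, 14 were measured (Shh and Krt25 had no kept probe, and Krt35 and Krt71 were well above background on 4 of the 6 arrays), and their summed level was 12.7, 10.99 and 12.6 on FoxO1 +/- arrays and 68.3, 11.4 and 14.0 on WT arrays. WT replicate 1, the array with the high hair markers, was also the highest of all 6 for 10 of 16 replication members, 1 of 21 mitosis members and 17.1% of all genes. Without that array the median difference of the replication members was -0.01, against -0.09 with it. Several marker lists had higher values in FoxO1 +/-, beside the lower values of the members. Higher were 7 of 8 monocyte and macrophage, 7 of 8 fibroblast, 8 of 11 neutrophil and 3 of 3 erythroid markers, and 0 of these passed the adjusted threshold. At an unadjusted limma p under 0.05, 1 monocyte and macrophage marker and 1 neutrophil marker were higher, against 3.42% of all genes. Among the fibroblast and erythroid markers it was 0. The summed level of the monocyte and macrophage markers was 356, 351 and 342 on FoxO1 +/- arrays and 321, 325 and 319 on WT arrays, which did not overlap. Lists of hair, keratinocyte and lymphocyte markers went the other way, with 12 of 14, 8 of 11 and 5 of 8 lower. The 7 adipocyte markers were higher in 7 of 7, with a median difference of 0.86, and had summed levels of 211, 257 and 282 on FoxO1 +/- arrays and 199, 108 and 166 on WT arrays, which did not overlap. Of these 7, 4 had an unadjusted p under 0.05, against 3.42% of all genes in that direction, and 0 passed the adjusted threshold in limma. The 7 endothelial markers were also higher in 7 of 7, with a median of 0.16. Of these, 2 of 7 had an unadjusted limma p under 0.05, beside the same 3.42% of all genes, and 0 passed the adjusted threshold. Their summed levels were 49.2, 52.5 and 56.6 on FoxO1 +/- arrays and 45.5, 43.8 and 46.0 on WT arrays, which did not overlap either. None of these 14 markers was at 0. The part of muscle, hair, fat, vessel or any other of these tissues and cells in the levels of the cell cycle genes was not tested.

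**Figure D4:**
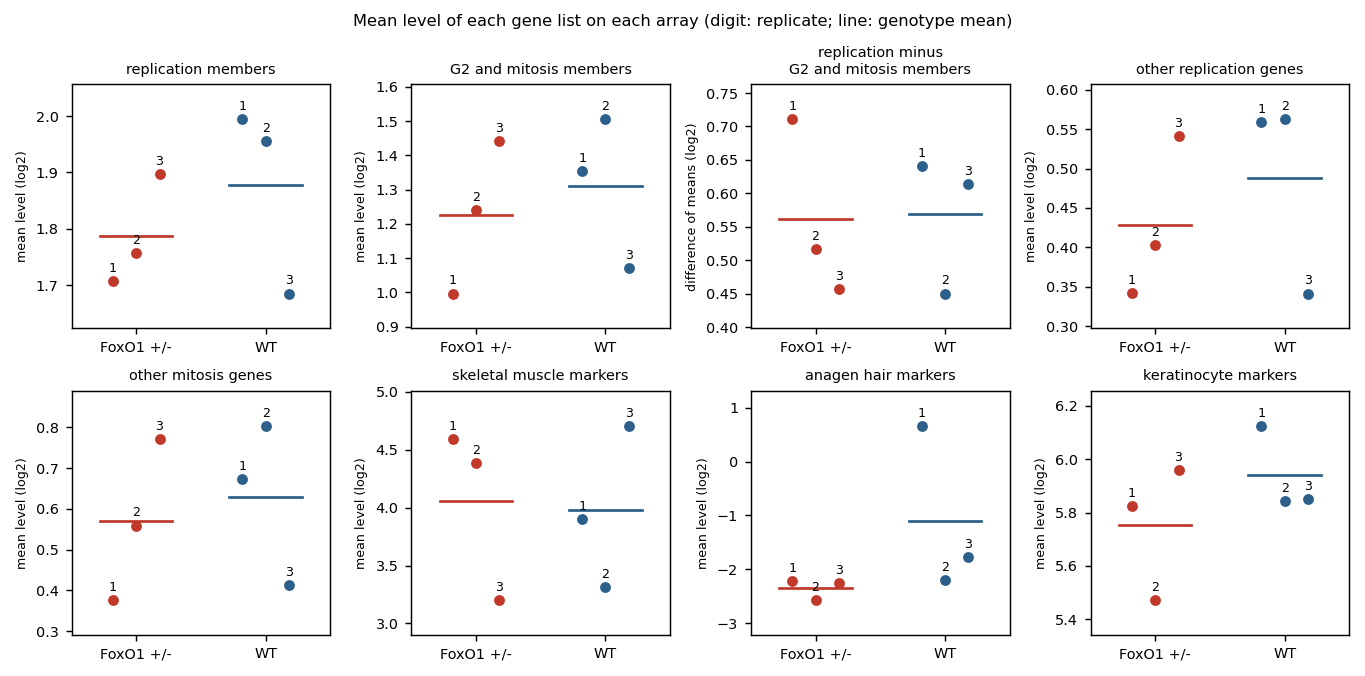
Mean log2 level of each gene list on each array, FoxO1 +/- in red left of WT in blue, with the replicate number above each point and a line at the genotype mean, on axes that do not start at 0. The G2 and mitosis panels run opposite to the skeletal muscle panel, in which FoxO1 +/- replicate 3 (3.20) and WT replicate 2 (3.32) are lowest.

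Which arrays were used set the sign of the mitosis median. Leaving out FoxO1 +/- replicate 3 gave -0.19, leaving out WT replicate 3 gave -0.20, leaving out FoxO1 +/- replicate 1 gave 0.040 and leaving out WT replicate 2 gave 0.046. The replication median stayed below 0 in all 6 of these fits, and was -0.20 when WT replicate 3 was left out and -0.01 when WT replicate 1 was. WT replicate 3 was the lowest WT array for 38 of 39 members, against 38.5% of all genes. With it left out, the 4 members Mcm5, Mcm2, Aurkb and Mcm4 had an unadjusted limma p under 0.05, all with lower values in FoxO1 +/-. The smallest adjusted p of a member was 0.935. The share of all genes under 0.05 in that fit is not given, so the 4 are not read as a result about the members. Slide position, as read from the array barcodes, did not match the genotypes evenly. Row 1 of the slide held FoxO1 +/- replicate 1 and all WT arrays, and row 2 held FoxO1 +/- replicates 2 and 3. Within row 1 the mitosis median was -0.30 and the replication median -0.18, both resting on FoxO1 +/- replicate 1 alone against 3 WT arrays.

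**Figure D5:**
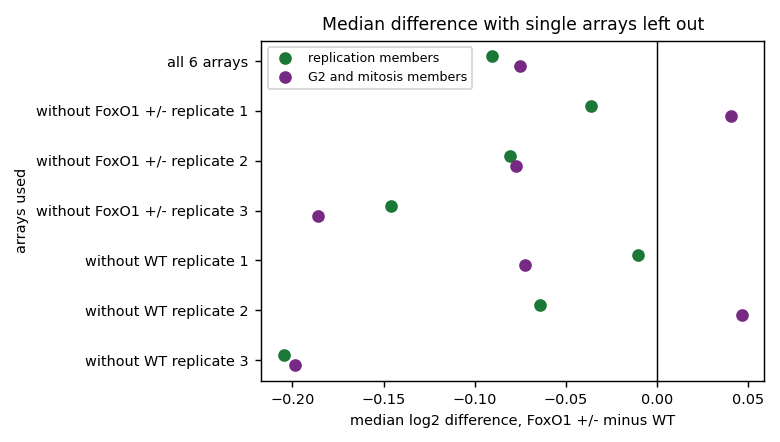
Median log2 difference, FoxO1 +/- minus WT, of the 16 replication members (green) and the 21 G2 and mitosis members (purple) with all 6 arrays and with each array left out in turn. The purple points lie between -0.20 and 0.046 and cross 0, and the green points lie between -0.20 and -0.01.

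Other genes of the same pathways, on wider lists, had similar values. Of 44 other replication genes, 33 had lower and 11 higher values in FoxO1 +/- than in WT, 0 passed an adjusted p of 0.05, and the median was -0.05. Of all genes, 46.3% had lower values. The summed linear level of the 44 genes was nearly equal, with a mean of 138.6 on FoxO1 +/- arrays and 138.0 on WT arrays. Orc1, the largest subunit of the origin recognition complex, differed by -0.27 (SE 0.14, adjusted p = 0.849), and Pole2, a subunit of the leading-strand polymerase, by -0.20 (SE 0.11). Gins3 went the other way, with 4.998, 5.01 and 5.16 on FoxO1 +/- arrays and 4.90, 4.86 and 4.85 on WT arrays. Its genotypes did not overlap, and the difference of 0.18 (SE 0.07) had a limma adjusted p of 0.806. Of the 44 genes, 1 had all FoxO1 +/- arrays above all WT arrays and 0 had them below, against 6.9% and 4.56% of all genes. Of 42 other mitosis genes, 35 had lower and 7 higher values, 0 passed, and the median was -0.06, with -0.17 for Cdc25b, the phosphatase that activates Cdk1, -0.14 for Ect2, which starts cytokinesis, and -0.12 for the checkpoint kinase Ttk. The 4-part order of arrays held in 28 of these 42 (66.7%) and in 15 of the 44 other replication genes (34.1%). FoxO1 +/- replicate 1 was the lowest FoxO1 +/- array for 39 of the 42 and 36 of the 44, against 39.5% of all genes. Both lists come from the same arrays as the members, and their counts with single arrays left out are not given. They are therefore not a separate observation.

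The genes that gate the cycle had values on both sides of 0. Of 13 measured G1 kinases and growth-entry factors, 6 had lower and 7 higher values, 0 passed, and the median was 0.0017, with 0.11 for the E2F family member E2f5, 0.10 for the CDK-activating kinase Cdk7 and -0.05 for Cdk2. Of 19 CDK inhibitors, pocket proteins and growth arrest genes, 9 had lower and 10 higher values, and 0 passed an adjusted p of 0.05. Cdkn2c, the p18 inhibitor of the D-type cyclin kinases, read 0.81, 1.04 and 1.05 on FoxO1 +/- arrays, against 0.74, 0.56 and 0.63 on WT arrays. Every FoxO1 +/- array was above every WT array, and the difference was 0.33 (SE 0.10, limma adjusted p = 0.650). Of the 19 genes, 1 was apart in that direction and 0 in the other, against 6.9% and 4.56% of all genes. Cdkn2b, the p15 inhibitor of the same kinases, differed by -0.30 (SE 0.22) through WT replicate 1 alone, which read 0.81 where the other WT arrays read -0.0013 and 0.094 and the FoxO1 +/- arrays -0.041, 0.044 and 0.015. The pocket protein gene Rbl1 differed by -0.14 (SE 0.10).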

How the data were processed

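Total RNA of 6 skin wound samples was labelled with Cy3 from 200 ng and hybridised to 1-colour Agilent arrays, per the labels' protocols. That the arrays were on 1 slide, and their rows on it, was read from the barcodes in the scanner files' headers. The deposited scanner files hold spot intensity on a linear scale, which the authors extracted with Agilent Feature Extraction 10.7.1.1, per the file headers, while the submitters' processing notes name version 9.1. That signal is background-subtracted and not scaled between arrays. The authors' value table holds the same signal intensity, within 0.497%. It is linear and not centred, and was used as an alternative.

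Spots of a probe were averaged without outlier-flagged spots, converted to log2, and each array's 75th percentile was subtracted. Of 55681 non-control probes, 37902 were kept, those well above background on all arrays of 1 genotype or both. Symbols came from RefSeq accessions (25858 of 26952 mRNA probes matched), and the brightest kept probe stood for a gene, which left 16411 genes. No spot was saturated. FoxO1 +/- minus WT was tested with limma 3.58.1 in R 4.3.3 (lmFit, eBayes, two-sided, Benjamini-Hochberg over all genes). Normexp, an alternative, used the median and background median signals with an offset of 50. The fit was tested on simulated data. Members and lists were chosen with earlier results of these data known. Named with every array were the main regulators, helicase, clamp, cyclin and mitotic genes, and of each wider list the 3 genes with the smallest p. Promoters printed were those of highest ratio of difference to standard error per class, at most 2 a class. Titles number the samples within a genotype. The number of arrays limits the precision, and a p-value here reflects only how these 6 arrays vary.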

Additional observations from a re-analysis of the deposited data

How the results depend on the processing

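The result that 0 members passed an adjusted p of 0.05 held for 39 members in all 16 alternatives. Of 624 member values in them, 64 had the other sign, and 16 of 39 members kept their sign throughout, 15 of these lower in FoxO1 +/-. The share of 624 is not a rate of stability. The authors' value table, no filter, probes well above background on all 6 arrays and a replicate block left member differences nearly as they were, with 0 sign changes each. Slide row as a block and row 1 alone rest on the same comparison. The sign changed in 14 of 39 without FoxO1 +/- replicate 1 and in 15 of 39 without WT replicate 2. The count of all genes past the adjusted threshold, 1, was 0 with normexp, 0 with probes well above background on all 6 arrays, 2 with quantile normalization, 3 with no filter, 4 within slide row 1, 5 with median scaling and 7 with slide row as a block. With single arrays left out it ran from 0 to 28, the highest without WT replicate 2. The count of members with unadjusted p under 0.05 was 1 with normexp, 1 with quantile normalization and 1 with median scaling, Mcm5 each time, and it ran from 0 to 4 with single arrays left out. The share of all genes under 0.05 in these alternatives is not given, so these counts have no background beside them. The mitosis median was -0.30 and the replication minus mitosis difference 0.14 with slide row as a block and within row 1, where 1 FoxO1 +/- array faces 3 WT arrays. With single arrays left out the replication median ran from -0.20 to -0.01, the mitosis median from -0.20 to 0.046 and the replication minus mitosis difference from -0.08 to 0.045. Where results moved, the cause was not tested. Same-numbered arrays did not deviate together (correlations of -0.07, -0.14 and -0.30). These correlations cannot decide whether same-numbered samples shared a litter, day or experiment, since other differences between arrays could hide it. A replicate block gave 0 genes past the threshold and 0 members with unadjusted p under 0.05 in limma. The medians stayed at -0.09 and -0.07, which such a block cannot change, since each replicate number holds 1 array of each genotype. With 3 arrays per genotype, the intervals of single members allow changes of up to 1.40-fold upward and to 0.638 of WT.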
